A study of Mus musculus with 11 samples.

Results

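Gmeb1, Gmeb2, Cep97, Lin7c and Shisa5 were followed transcript by transcript in mouse thymocytes with and without Arpp21, an RNA-binding protein. Gmeb1, Cep97, Lin7c and Shisa5 were chosen by their lower read counts in DN3 Arpp21-/- thymocytes of these same libraries, and because the study shows iCLIP peaks of Arpp21 on their mRNAs. Gmeb2 was added as the paralog of Gmeb1, and not by its level. The iCLIP data are not analysed here. The 5 genes are 5 of 35975 genes in the tables, and their 40 annotated transcripts are 40 of 116728. Because counts in DN3 chose 4 of the genes, their differences between the genotypes in DN3 are given as a description with no test. The DN2 libraries did not enter that choice. The question was whether the lower level in DN3 Arpp21-/- thymocytes was shared by all transcripts of a gene, and what the same transcripts did in DN2.

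The samples were sorted CD4-CD8- thymocytes of 2 successive stages. The WT groups and DN3 Arpp21-/- had 3 libraries each and DN2 Arpp21-/- had 2, with Arpp21-/- written as KO in the plots. All are labelled C57BL/6J, and no other allele or agent is named. By the study's methods the Arpp21-/- line was made with CRISPR/Cas9 in C57BL/6N embryos by cutting on either side of exon 5, which puts the long Arpp21 protein out of frame and spares the short one. The deletion is in the germ line, so every cell of these mice carries it. The mice were of both sexes and of different ages, matched between the genotypes. The labels do not say whether replicates are separate mice, so p-values measure the spread between these samples, which may be technical. In such bulk samples, fewer cells of a type and less RNA per cell cannot be told apart.

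The libraries held between 14531762 and 63109504 estimated read counts. DN2 Arpp21-/- replicate 2 and DN3 Arpp21-/- replicate 3 stood apart. Their correlations with the other libraries of their stage, over log2 gene levels, were 0.810 to 0.830 and 0.905 to 0.925, the lowest that any other library of the stage had. Against the WT mean of the stage, genes with long transcripts (over 4000 nt) had a median log2 difference of -2.29 in the first and -1.14 in the second of these libraries, and genes with short ones (under 2000 nt) 1.13 and 0.50. Fold changes of the 5 genes that rest on these 2 libraries are given with and without them. Arpp21 itself stood at 125 to 183 CPM (counts scaled to library size with TMM factors) in DN2 WT, at 28.5 and 86.9 CPM in DN2 Arpp21-/-, at 312 to 386 CPM in DN3 WT and at 142 to 335 CPM in DN3 Arpp21-/- thymocytes. Its count covers all exons, so that it does not check the deletion. Ptcra, which marks DN3 cells, lay between 365 and 605 CPM in DN3 and between 1.00 and 11.7 CPM in DN2 libraries. Kit, which marks DN2 cells, was at 446 to 512 CPM in DN2 WT and at 66.6 CPM in the distant and 553 CPM in the other DN2 Arpp21-/- library. Of markers of other cells, Pax5 was at 0 in every library and Cd4 reached 5.71 CPM, while the 7 myeloid markers summed to 114 to 159 CPM in DN2 WT, 134 and 357 CPM in DN2 Arpp21-/-, and 29.9 to 47.6 CPM in DN3. Summed markers of B cells lay between 38.6 and 71.9 CPM, 3 found markers of gamma delta T cells between 139 and 294 CPM, 6 of DP thymocytes between 43.5 and 501 CPM and 5 of cells after beta selection between 212 and 1060 CPM over all libraries. The B cell sum was nearly all Cd79b, the gamma delta sum nearly all Trdc and the DP sum mostly Themis. Of the other DP markers, Cd8a and Trac reached 6.82 CPM, Cd8b1 13.9 CPM and Cd69 17.9 CPM. In the last sum, Top2a lay between 31.7 and 668 CPM and Cd28 between 4.79 and 147 CPM. In DN3, Cd28 was at 117 to 128 CPM in WT and at 139 to 147 CPM in Arpp21-/- cells, higher without overlap. Cd27 was at 161 to 163 CPM in DN3 WT and at 124 to 160 CPM in DN3 Arpp21-/- cells, lower without overlap. Tfrc, Mki67 and Top2a overlapped there. The 5 markers of DN2 cells summed to 1966 to 2575 CPM in DN2 WT and to 311 and 2256 CPM in DN2 Arpp21-/-. In DN3 WT they summed to 1857 to 2308 CPM, of which Il2ra, also a DN3 marker here, made up 1081 to 1678 CPM. The 5 of DN3 cells summed to 4076 to 4644 CPM in DN3 WT and 2458 to 4236 CPM in DN3 Arpp21-/-. Of these, Rag1 (867 to 973 CPM in WT, 236 to 413 CPM in Arpp21-/-) and Cd3e (1264 to 1337 and 964 to 1238 CPM) were lower without overlap. Il2ra, Notch3 and Ptcra overlapped, with Ptcra at 365 to 436 CPM in DN3 WT and 432 to 605 CPM in DN3 Arpp21-/-. The study reports Rag1 mRNA as a target of Arpp21, so the DN3 sum is no plain measure of stage. The part of these differences in the results was not tested.

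Arpp21 belongs to a small family of proteins with an R3H domain. By the study, Arpp21 binds U-rich stretches, mostly in 3′ untranslated regions (3′UTRs) of mRNAs. One gene can give several transcripts that differ in their first exon, their splicing or the place where the 3′UTR ends, and a protein that acts through the 3′UTR meets only those transcripts that contain its site. Gmeb1 and Gmeb2 encode the glucocorticoid modulatory element binding proteins, a pair of nuclear factors with a SAND domain that bind DNA and take part in the response to glucocorticoids, hormones to which thymocytes are sensitive. Cep97 encodes a centrosomal protein that works with CP110 to keep centrioles from growing cilia. Lin7c encodes a small PDZ scaffold of the complexes that set cell polarity. Shisa5, also called Scotin, encodes a membrane protein of the endoplasmic reticulum that p53 induces and that can promote apoptosis.

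The reads do not separate all transcripts equally well, because the program kallisto, which made the tables, tells transcripts apart only by sequence that they do not share. For Lin7c-201 against Lin7c-202, and for Cep97-201 against the short form Cep97-205, the sequences part after exon 4, as shown by the bases on both sides of that point in GRCm38, with exon 4 in lower case and what follows it in capitals. Lin7c-201 and Lin7c-202 part after base 109896445 of chromosome 2 (plus strand), where Lin7c-201 goes on at 109897246 and Lin7c-202 reads into the intron. Cep97-201 and Cep97-205 part after base 55924969 of chromosome 16 (minus strand), where Cep97-201 goes on at 55923040 and Cep97-205 at 55924679. The Cep97-205 line stops at the last coding base, and the junction of Cep97-201 is also present in Cep97-202 and Cep97-203.
Lin7c-201: tctgttaatggagtgAGTGTTGAAGGGGAG
Lin7c-202: tctgttaatggagtgGTAAAGATAAATTGT
Cep97-201: ttgatatctttgaagACCTTGCTTTTACAT
Cep97-205: ttgatatctttgaagGACGTG

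**Figure D1:**
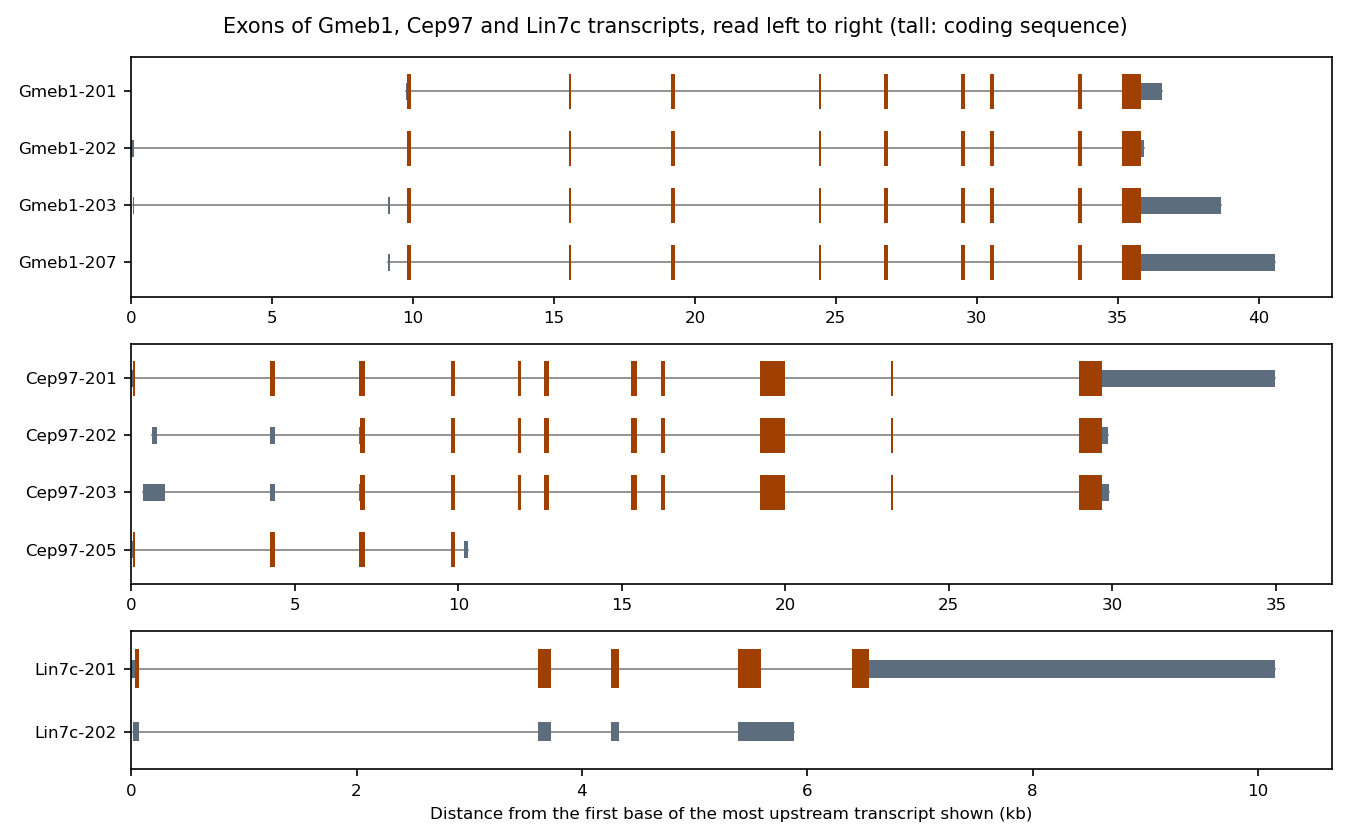
Exons of the named transcripts of Gmeb1, Cep97 and Lin7c along each gene, in kb from the first base of the most upstream transcript shown, with coding sequence as tall and untranslated sequence as low boxes. The 4 Gmeb1 transcripts share their coding exons and differ in the first exon and in the length of the last one, Cep97-205 stops after 5 exons, and Lin7c-202 has no coding sequence.

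Gmeb1 (chr4:132221025-132261602, minus strand) was lower in Arpp21-/- than in WT thymocytes of both stages. In DN3 WT it stood at 39.2, 36 and 39.9 CPM, and in DN3 Arpp21-/- at 14.8, 13.9 and 8.71 CPM. All 3 Arpp21-/- libraries lay below all WT libraries, as those of 5.53% of all genes tested did. This gave a log2 fold change of -1.62 ± 0.30 (SE, 3 against 3 libraries), or of -1.42 without the 2 distant libraries. In DN2 it stood at 42.2, 28.1 and 41.1 CPM in WT and at 10.5 and 8.54 CPM in Arpp21-/- cells, again without overlap, as did 8.29% of all genes in this direction. In DN2 the log2 fold change was -1.96 ± 0.35, and -1.80 without the distant library, which did not pass the test over 13780 genes (edgeR's quasi-likelihood test, adjusted p = 0.336, 2 against 3 libraries). None of the 13780 genes passed it in this comparison (0%), although 2020 had an unadjusted p under 0.05. DESeq2 called 38 genes there, Gmeb1 among them, with a log2 fold change of -1.91 and an adjusted p of 2.38e-06. The remaining tools, limma-trend and limma voom, called 0.

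**Figure D2:**
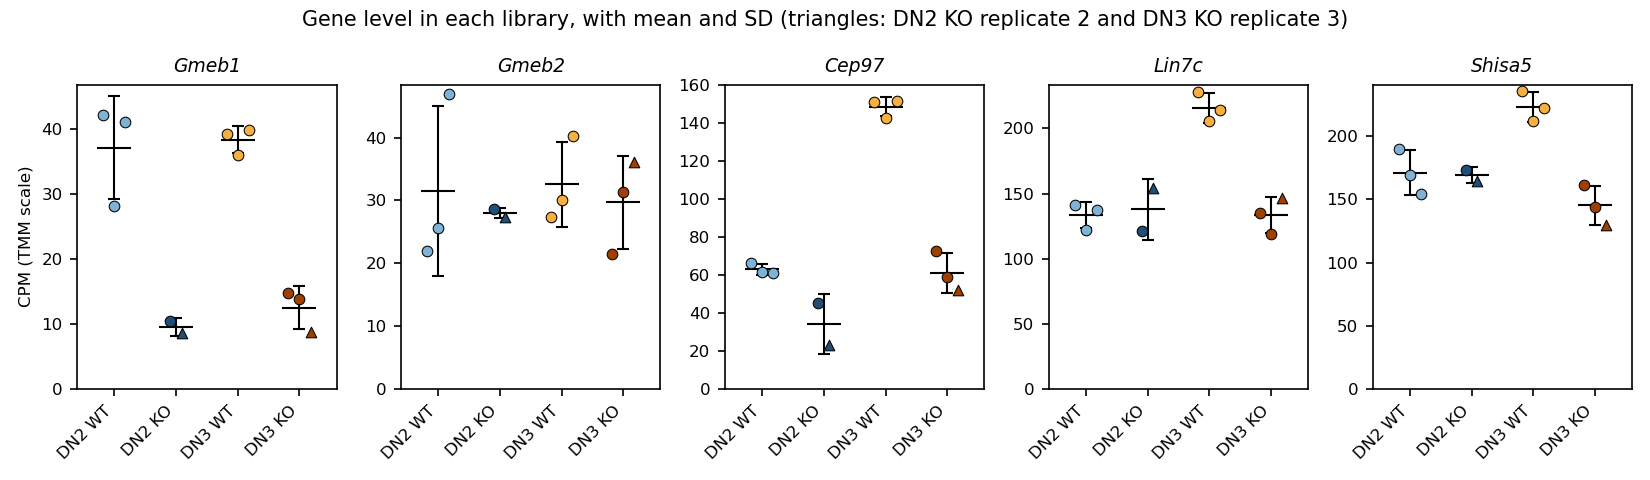
CPM of the 5 genes in each library (points) by stage and genotype, with the group mean and SD as lines, and with DN2 KO replicate 2 and DN3 KO replicate 3 as triangles. Gmeb1 lay below WT in both stages, Cep97 in both stages, Lin7c and Shisa5 in DN3, and Gmeb2 overlapped in both. Of all genes tested, 8.29% lay below WT in this way in DN2 and 5.53% in DN3.

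Per length, Gmeb1 of WT thymocytes was carried mostly by Gmeb1-202, a coding transcript of 1925 nt with a 3′UTR of 94 nt. In DN2 WT this transcript was at 12.7, 10.4 and 17.3 TPM (transcripts scaled to a fixed total per library, a level per length), and in DN2 Arpp21-/- it was listed at 0 in both libraries. Its WT mean of 17.6 ± 4.52 CPM (SD, n = 3) was 178-fold above a floor of 3 counts per library, or 0.0802 to 0.118 CPM. This floor covers counting error only. The 0 is an estimate that shares out reads between transcripts, so the fold is no lower bound on the difference. In DN2 Arpp21-/- replicate 2, all 320 estimated counts of Gmeb1 were given to Gmeb1-207. Gmeb1-202 fell in this comparison (edgeR, adjusted p = 0.0202, lower in 2 of 2 libraries). It had the smallest p and was the 1 transcript of 43360 that passed (0.00231%). The call was lost with any single DN2 WT library or with DN2 Arpp21-/- replicate 2 left out. It was kept without replicate 1, but this leaves only the distant library in its group, so nothing is read from that fit. The transcript was at 0 in the distant replicate 2 and also in replicate 1, whose log2 gene levels correlated at up to 0.954 with those of a WT library.

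In DN3 the same transcript was at 14.95, 13.5 and 12.2 TPM in WT and at 0.70, 1.63 and 0.78 TPM in Arpp21-/- cells. These were 396, 396 and 323 estimated counts against 19.3, 36.7 and 19.4, so that its groups were far apart and each Arpp21-/- library retained some counts. Its log2 fold change was -3.51 ± 0.49 (SE), and -3.53 without the 2 distant libraries. The distance in DN3 was larger than that of the gene as a whole. Whether the change differed between the stages was not tested.

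Gmeb1-203 and Gmeb1-207 differed less than Gmeb1-202 in DN3. Gmeb1-203, which begins at the same upstream exon and has a 3′UTR of 2819 nt, was at 5.70, 3.48 and 6.32 TPM in DN3 WT and at 3.41, 2.69 and 0.21 TPM in DN3 Arpp21-/- cells. The lowest of these was the distant library and the highest lay just under the lowest WT value. Its log2 fold change of -1.24 had an SE of 1.36 and was -0.75 without the 2 distant libraries. Gmeb1-207, which starts at a downstream exon and has the longest 3′UTR of 4740 nt, was at 0.82, 1.21 and 1.28 TPM in DN3 WT and at 0.87, 0.74 and 0.81 TPM in DN3 Arpp21-/- cells. These groups overlapped, with a log2 fold change of -0.18 ± 0.66, or of -0.45 without the 2 distant libraries. Gmeb1-201 was near its floor in DN3, where the WT libraries had 0, 58.5 and 35.8 estimated counts and the Arpp21-/- libraries 0, 5.20 and 0, and no fold is given. In DN2 it had 112, 22.1 and 53.6 estimated counts in WT and 0 in both Arpp21-/- libraries, and did not pass (edgeR, adjusted p = 0.538). Its DN2 WT mean was 26.7-fold above the same floor on the CPM scale, which again is no lower bound. In DN2, Gmeb1-203 was at 4.67, 2.38 and 3.83 TPM in WT and at 2.90 and 0 TPM in Arpp21-/- cells, and Gmeb1-207 at 1.68, 0.78 and 0.74 TPM in WT and at 0.27 and 0.66 TPM in Arpp21-/- cells. Neither passed (edgeR on counts, log2 fold changes of -1.32 ± 1.57 and -0.10 ± 0.74, adjusted p = 0.834 and 0.992). Both log2 fold changes turned on the distant library, since they were -0.30 and -1.95 without it. On the CPM scale Gmeb1-207 was at 7.24, 3.96 and 3.48 in DN2 WT and at 1.22 and 8.54 in DN2 Arpp21-/- cells, the last in the distant library. The 3 transcripts not coding for protein had a mean of at most 0.34 TPM in any group.

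**Figure D3:**
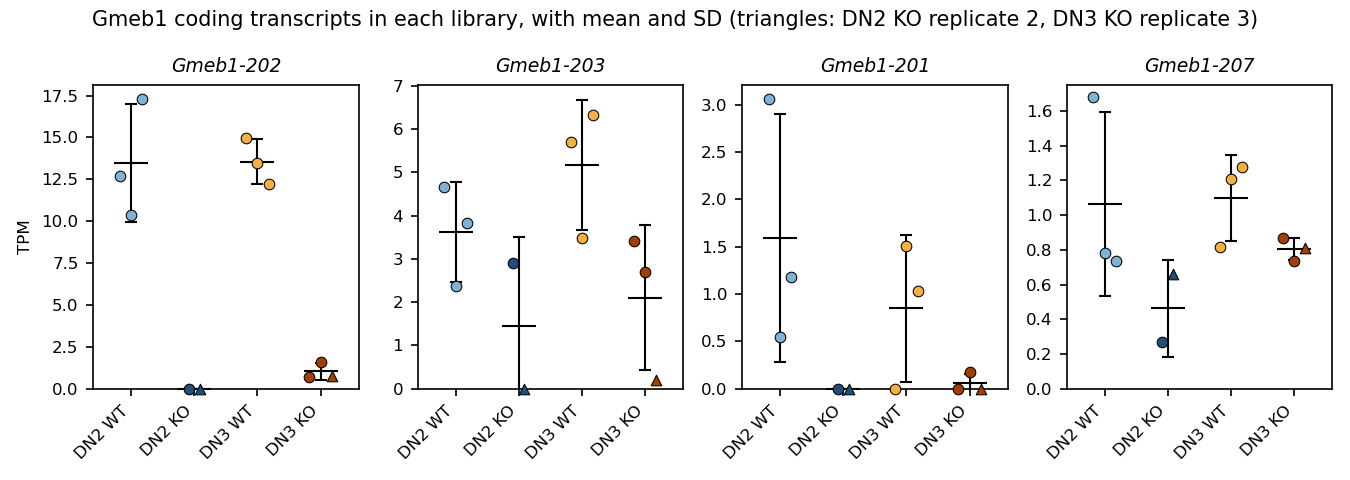
TPM of the 4 coding Gmeb1 transcripts in each library (points) by stage and genotype, with mean and SD, and with DN2 KO replicate 2 and DN3 KO replicate 3 as triangles. Gmeb1-202 lay between 10.4 and 17.3 TPM in all WT libraries and between 0 and 1.63 TPM in all KO libraries, while Gmeb1-207 overlapped in DN3.

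The share of Gmeb1 carried by Gmeb1-202 was therefore unequal. It made up 67.8% ± 11.4 (SD, n = 3) of the TPM of the gene in DN2 WT and 64.5% ± 6.0 (n = 3) in DN3 WT, against 0% in both DN2 Arpp21-/- libraries and 27.1% ± 12.6 (n = 3) in DN3 Arpp21-/- cells. As a share of estimated counts, which favours long transcripts, it was 48.1% in DN2 WT, 43.0% in DN3 WT and 12.6% in DN3 Arpp21-/- cells. Transcript usage, tested in DN2 as unequal change among the transcripts of a gene, passed for Gmeb1 (edgeR's diffSpliceDGE, gene F test, adjusted p = 0.0359), one of 21 genes of 9254 (0.227%). On simulated data this F test made more false calls than its threshold allows. The call was lost with the Simes adjustment (adjusted p = 0.0951), and leaving out DN2 WT replicate 2 or 3 also lost it (adjusted p = 0.0759 and 0.0848). The remaining coding transcripts of Gmeb1 summed to 9.40, 3.70 and 5.75 TPM in DN2 WT and to 3.17 and 0.66 TPM in DN2 Arpp21-/- cells. In DN3 they summed to 6.52, 6.20 and 8.63 TPM in WT and to 4.27, 3.61 and 1.02 TPM in Arpp21-/- cells. The summed rest was thus lower in every Arpp21-/- library as well. All 4 coding transcripts contain the same coding sequence of 1686 nt, so reads from it are shared out by estimate. Gmeb1-202 has 110 stretches of 31 bases of its own and Gmeb1-203 has 29. By the exon bounds, those of Gmeb1-202 lie in its first exon and at the junction after it, and none in its 3′UTR. Reads that tell Gmeb1-202 apart thus come from its 5′ end and not from its short 3′UTR. A value of 0 for one transcript is such an estimate and not a count of reads.

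Gmeb2 (chr2:181251449-181288035, minus strand), the paralog of Gmeb1, did not pass the test in either stage. It stood at 27.3, 30.1 and 40.2 CPM in DN3 WT and at 21.5, 31.4 and 36.1 CPM in DN3 Arpp21-/- cells, with overlapping groups. The log2 fold change was -0.13 ± 0.35 (edgeR, adjusted p = 1, 3 against 3 libraries), where 1 of 13780 genes passed (0.00726%). In DN2 it stood at 21.9, 25.7 and 47.0 CPM in WT and at 28.6 and 27.4 CPM in Arpp21-/- cells, with a log2 fold change of -0.17 ± 0.39 (edgeR, adjusted p = 0.809). Both values were smaller than their SE, and that of DN3 ran from -0.30 to 0.05 when 1 library was left out. Most of it lay on Gmeb2-201, with 86.3% ± 7.9 of the TPM of the gene in DN3 WT and 84.5% ± 2.7 in DN3 Arpp21-/- cells (SD, n = 3 each). Gmeb2-201 had a log2 fold change of -0.15 ± 0.36 in DN3 (edgeR, adjusted p = 1, among 43360 transcripts of which 0, or 0%, passed and 864 had an unadjusted p under 0.05) and -0.21 ± 0.40 in DN2 (edgeR, adjusted p = 0.911). DESeq2 called 76 transcripts in DN3 and limma-trend 0 or 1. Usage of Gmeb2 transcripts gave an adjusted p of 1 in both stages (edgeR, with 0.0324% of genes passing in DN3).

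Cep97 (chr16:55899888-55934855, minus strand) was at 151, 143 and 152 CPM in DN3 WT and at 72.7, 58.6 and 52.0 CPM in DN3 Arpp21-/- cells. The latter all lay below WT, as for 5.53% of all genes tested. The log2 fold change of Cep97 was -1.28 ± 0.28 (SE), and -1.18 without the 2 distant libraries. It weakened to -0.78 when the average length of the transcripts present was taken into account. In DN2 it was at 66.2, 61.6 and 60.9 CPM in WT and at 45.2 and 22.9 CPM in Arpp21-/- cells, the lower of which was the distant library. A log2 fold change of -0.89 ± 0.32 in DN2 did not pass (edgeR, adjusted p = 0.336), and was -0.46 without the distant library and 0.04 with the length offset.

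Its transcripts were not lower alike. Cep97-201, of 7911 nt and with a 3′UTR of 5280 nt, was at 20.6, 19.7 and 22.3 TPM in DN3 WT and at 9.05, 7.13 and 2.87 TPM in DN3 Arpp21-/- cells, all below WT. Its log2 fold change was -1.58 ± 0.65 (SE), and -1.37 without the 2 distant libraries. Cep97-202, which has 11 exons like Cep97-201 but a 3′UTR of 190 nt, was at 17.6, 14.2 and 17.5 TPM in WT and at 9.83, 7.60 and 6.67 TPM in Arpp21-/- cells, also without overlap. For this form the log2 fold change was -0.81 ± 0.36, and -0.92 without the 2 distant libraries. Cep97-205, the short form of 609 nt whose junction is printed above, was at 18.6, 14.0 and 8.43 TPM in DN3 WT and at 13.0, 9.80 and 9.70 TPM in DN3 Arpp21-/- cells. These overlapped, with a log2 fold change of -0.14 ± 0.64 on the CPM scale. Cep97-203 was lower in level, between 1.09 and 1.92 TPM in DN3 WT and between 0.14 and 1.77 TPM with the deletion, and overlapped too.

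Cep97-201 made up 39.8% ± 4.5 of the TPM in DN3 WT and 22.7% ± 7.2 in DN3 Arpp21-/- cells, while Cep97-202 made up 31.2% ± 3.1 and 30.5% ± 2.7 (SD, n = 3 each). The share of Cep97-205 was 25.6% ± 7.9 and 41.5% ± 6.4. As a share of estimated counts, Cep97-201 made up 74.2% and 59.5% in these groups. In DN2, Cep97-201 was at 9.21, 7.43 and 6.68 TPM in WT and at 4.82 and 0.17 TPM in Arpp21-/- cells. The second of these was the distant library, in which long transcripts were low throughout. Its log2 fold change of -1.58 ± 0.75 did not pass (edgeR, adjusted p = 0.546), and it was -0.69 without the distant library. Cep97-202 and Cep97-205 had log2 fold changes of 0.24 ± 0.40 and 0.44 ± 0.71 in DN2 (edgeR, adjusted p = 0.892 and 0.882), or of 0.63 and -1.41 without the distant library. Usage of Cep97 transcripts in DN2 did not pass (edgeR, adjusted p = 0.656). Cep97-201 can be told apart by 62.4% of its 31-base stretches, Cep97-202 by 28 and Cep97-205 by 27 of them, so the values of the short forms are less firm.

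**Figure D4:**
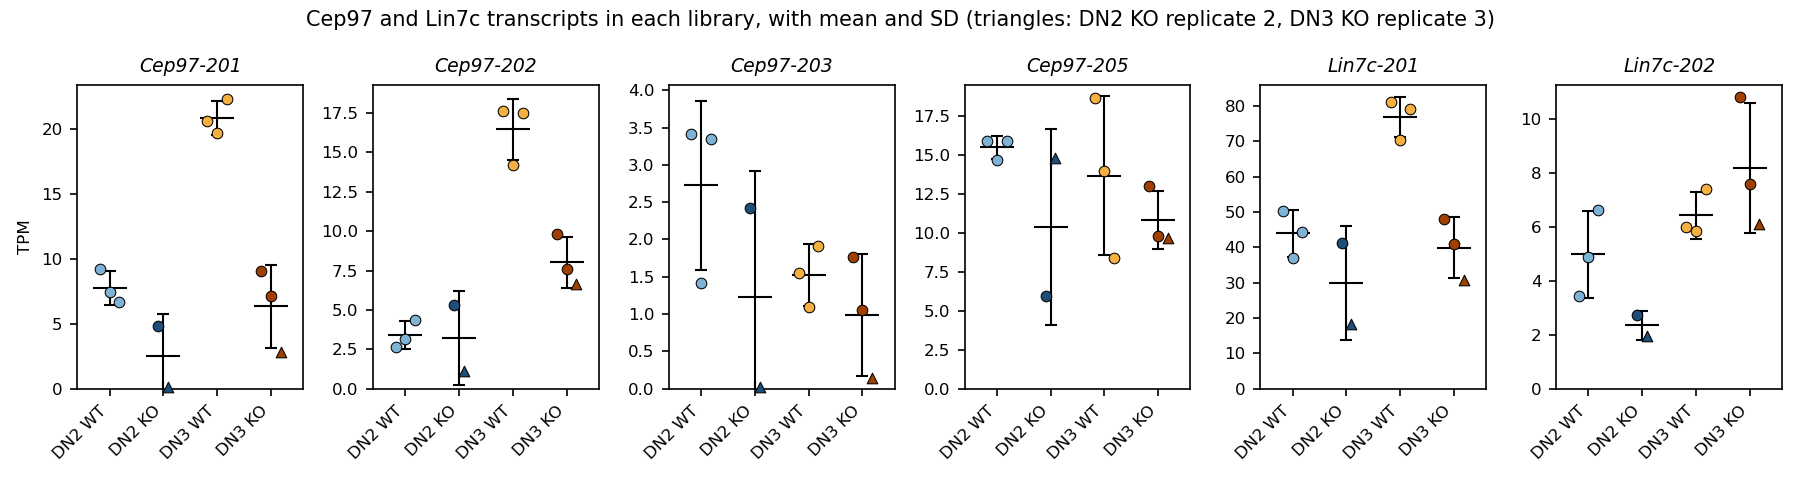
TPM of 4 Cep97 and 2 Lin7c transcripts in each library (points) by stage and genotype, with mean and SD, and with DN2 KO replicate 2 and DN3 KO replicate 3 as triangles. In DN3 the KO libraries lay below WT for Cep97-201, Cep97-202 and Lin7c-201, and overlapped with WT for Cep97-203, Cep97-205 and Lin7c-202.

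Lin7c (chr2:109890853-109901003, plus strand) was at 228, 205 and 214 CPM in DN3 WT and at 135, 119 and 147 CPM in DN3 Arpp21-/- cells. The latter all lay below WT, as for 5.53% of all genes tested. The log2 fold change of Lin7c was -0.69 ± 0.21 (SE) and -0.77 without the 2 distant libraries. In DN2 it was at 141, 122 and 137 CPM in WT and at 121 and 154 CPM in Arpp21-/- cells, one on each side of the WT values. There the log2 fold change was 0.05 ± 0.23 (edgeR, adjusted p = 0.915), and -0.12 without the distant library.

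In Lin7c the lower level in DN3 was on one of its 2 transcripts. Lin7c-201, the coding one with a 3′UTR of 3602 nt, was at 81.2, 70.5 and 79.0 TPM in DN3 WT and at 48.0, 41.1 and 30.8 TPM in DN3 Arpp21-/- cells. On the CPM scale the log2 fold change was -0.73 ± 0.20 (SE), and -0.79 without the 2 distant libraries. Lin7c-202, which ends in the retained intron after exon 4, was at 6.01, 5.85 and 7.42 TPM in WT and at 10.8, 7.61 and 6.10 TPM in Arpp21-/- cells. These overlapped in TPM, while on the CPM scale all 3 Arpp21-/- libraries lay above WT, with a log2 fold change of 0.52 ± 0.53, or of 0.49 without the 2 distant libraries. Its share of the TPM of the gene was 7.7% ± 0.8 in DN3 WT and 16.9% ± 1.4 in DN3 Arpp21-/- cells (SD, n = 3 each). Of the estimated counts, Lin7c-201 held 98.8% and 97.2%, so that Lin7c-202 held the small remainder. In DN2 the TPM share was 10.4% ± 3.5 (n = 3) and 8.0% ± 2.4 (n = 2), and Lin7c-202 had a log2 fold change of -0.41 ± 0.60 (edgeR, adjusted p = 0.869), or of -0.88 without the distant library. Lin7c-201 had one of -0.00 ± 0.23 in DN2 (edgeR, adjusted p = 1), and usage did not pass (edgeR, adjusted p = 1). Because Lin7c-202 rests on 29.7 to 99.4 estimated counts per library, its share is coarse.

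Shisa5 (chr9:109038565-109057777, plus strand) was at 236, 212 and 222 CPM in DN3 WT and at 161, 144 and 130 CPM in DN3 Arpp21-/- cells. The latter all lay below WT, as for 5.53% of all genes tested. The log2 fold change of Shisa5 was -0.62 ± 0.20 (SE), or -0.55 without the 2 distant libraries. In DN2 it was at 190, 169 and 155 CPM in WT and at 173 and 165 CPM in Arpp21-/- cells, within the WT range. There the log2 fold change was -0.02 ± 0.23 (edgeR, adjusted p = 0.967). Per length, Shisa5 was at 213, 181 and 172 TPM in DN2 WT and at 198 and 67.1 TPM in DN2 Arpp21-/- cells. The last was the distant library, which lay below WT on this scale.

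Of 19 annotated Shisa5 transcripts, 15 reached a mean of 0.5 TPM in a group and 14 were tested. Shisa5-201, the main one, was at 137, 122 and 129 TPM in DN3 WT and at 94.7, 87.0 and 41.9 TPM in DN3 Arpp21-/- cells. All 3 lay below WT, with a log2 fold change of -0.64 ± 0.23 (SE), or of -0.52 without the 2 distant libraries. Its share of the TPM of the gene was 43.0% ± 1.2 in DN3 WT and 43.4% ± 2.9 in DN3 Arpp21-/- cells (SD, n = 3 each), so the rest of the gene differed in about equal measure. Shisa5-202, with a 3′UTR of 1069 nt, had a log2 fold change of -0.66 ± 0.31, and Shisa5-219, an annotation that stops within the coding sequence, one of -1.07 ± 0.46. For Shisa5-203, which starts inside the gene, the value on the CPM scale was -0.07 ± 0.42. Its level per length was 13.9 ± 2.58 TPM in Arpp21-/- and 17.0 ± 4.65 TPM in WT cells. Of the 14, 12 were lower and 2, Shisa5-213 and Shisa5-217, were higher, and 5 lay below WT in all libraries on the CPM scale. The value of Shisa5-213 rested on the distant libraries, being 0.07 with them and -1.30 without. Among all 43360 transcripts 22728 were lower and 20304 higher in this comparison. Shisa5-201 has no 31-base stretch of its own, so its level is an estimate from shared sequence. In DN2 its log2 fold change was -0.08 ± 0.26 (edgeR, adjusted p = 0.961), and usage of Shisa5 transcripts did not pass (edgeR, adjusted p = 1).

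**Figure D5:**
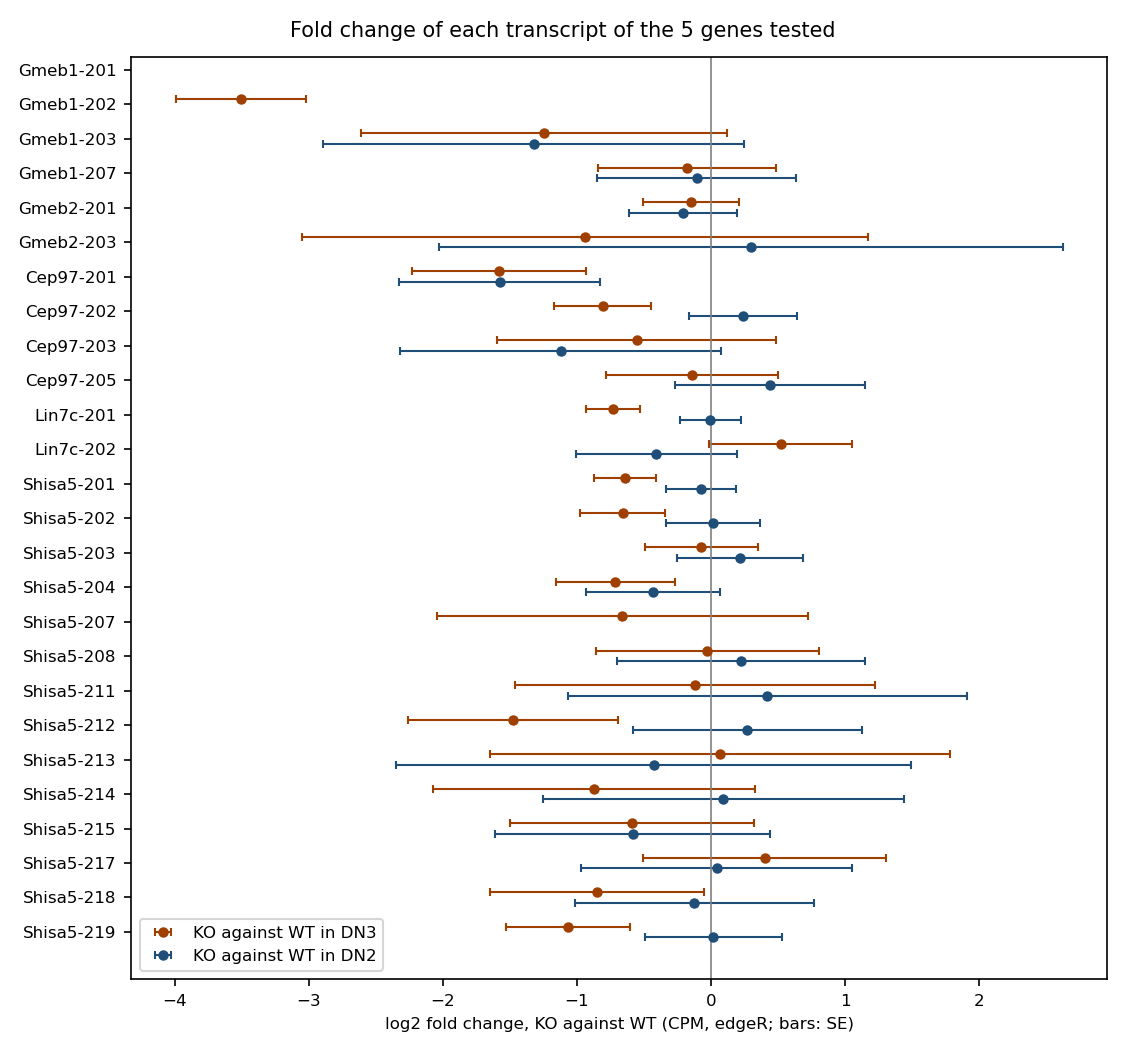
Log2 fold change of KO against WT for each tested transcript of the 5 genes, with SE as bars, in DN3 and in DN2, leaving out values where a group had a mean under 3 estimated counts. In DN3 the values ran from -3.51 for Gmeb1-202 to 0.52 for Lin7c-202, and in DN2 the main transcripts of Lin7c and Shisa5 lay near 0.

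Over the 4 genes chosen on DN3, 24 transcripts were tested. In DN3 the Arpp21-/- libraries all lay below WT for 10 of them and above WT for 1, where 5.87% of all transcripts lay below. The 10 were 2 of 4 for Gmeb1, 2 of 4 for Cep97, 1 of 2 for Lin7c and 5 of 14 for Shisa5. Since the rule used these counts, nothing is read from the share. In DN2, 3 of the 24 lay below WT without overlap, Gmeb1-201, Gmeb1-202 and Cep97-201, where 8.66% of all transcripts did. The 26 tested transcripts include 2 of Gmeb2, neither of which was apart in either stage.

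The 3′UTRs of the 5 genes were compared for runs of 7 U, searched as UUUUUUU on the transcript strand and counted with overlaps. The 3′UTR of Cep97-201 holds 17 of them, that of Lin7c-201 holds 13 and that of Gmeb1-207 holds 10. At least 1 such run is present in 88.9%, 78.6% and 85.6% of all annotated 3′UTRs within 20% of their lengths. Gmeb1-202 holds 1 in its short 3′UTR of 94 nt, where 3.54% of 3′UTRs of similar length hold one. These 94 nt lie within the longer 3′UTRs of Gmeb1-201, Gmeb1-203 and Gmeb1-207, so this run is in those as well and does not set Gmeb1-202 apart. The 3′UTRs of Gmeb1-203, Gmeb1-201 and Gmeb2-201 also hold 1 each. Those of Shisa5-201, Shisa5-202, Cep97-202 and Cep97-205 hold none. Such a run is a description of these letters and not a binding site.

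Between the stages in WT, the differences of Gmeb1, Cep97, Lin7c and Shisa5 are given as a description with no test, because the DN3 WT libraries are shared with the comparison that chose these genes. Cep97 had a log2 fold change from DN2 to DN3 of 1.24 ± 0.28 (SE, 3 against 3 libraries), and of 0.73 when the average transcript length was taken into account. Cep97-202 was at 2.66, 3.16 and 4.38 TPM in DN2 WT, below all the DN3 WT values given above, with a log2 fold change of 2.14 ± 0.38. For Cep97-201 it was 1.31 ± 0.65 and for Cep97-205 it was -0.32 ± 0.64. Lin7c had a log2 fold change of 0.69 ± 0.21, Shisa5 one of 0.38 ± 0.20 and Gmeb1 one of 0.05 ± 0.29. Gmeb2, which its level did not choose, had one of 0.04 ± 0.35 and did not pass (edgeR, adjusted p = 1). Neither did Gmeb2-201, with 0.02 ± 0.36 (edgeR, adjusted p = 1), or the usage of Gmeb2 transcripts (edgeR, adjusted p = 1), where 0.669% of transcripts and 0.313% of genes by usage passed.

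By mean CPM, Cep97 was in the order DN3 WT (149 ± 4.96), DN2 WT (62.9 ± 2.87), DN3 Arpp21-/- (61.1 ± 10.6) and DN2 Arpp21-/- (34.1 ± 15.7), in which DN2 WT and DN3 Arpp21-/- did not differ beyond their spread (SD, n = 3, 3, 3 and 2). Lin7c had DN3 WT at 216 ± 11.4 CPM and the other 3 groups between 133 and 138 CPM. For Shisa5 the order was DN3 WT (223 ± 11.8), DN2 WT (171 ± 17.5), DN2 Arpp21-/- (169 ± 6.21) and DN3 Arpp21-/- (145 ± 15.6), in which the libraries of DN2 WT and DN2 Arpp21-/- overlapped and those of the other neighbours did not. Per length, Gmeb1 was at 21 ± 0.88 TPM and Gmeb2 at 13.9 ± 4.34 TPM in DN3 WT, and at 4.24 ± 1.87 and 10.6 ± 2.04 TPM in DN3 Arpp21-/- cells.

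Genes that work with the 5 were read from 4 lists. Of 18 genes with a SAND domain or of the glucocorticoid receptor pathway, 0 passed in either direction in DN3, in DN2 or between the stages, and their median log2 fold change was -0.20 in DN3 and -0.70 in DN2, beside -0.00 and -0.06 over all genes tested. Nr3c1, the glucocorticoid receptor, was at 425 ± 19.0 CPM in DN3 WT and 296 ± 68.9 CPM in DN3 Arpp21-/- cells (edgeR, adjusted p = 1). Tsc22d3, which glucocorticoids induce, was at 87.8 ± 3.62 and 51.1 ± 8.72 CPM there (edgeR, adjusted p = 1). Of 16 genes of the CP110 complex and the start of the cilium, 0 passed in any comparison, with medians of -0.07 in DN3 and -0.33 in DN2. Ccnf, which removes CP110, had a log2 fold change of -0.48 ± 0.28 in DN3 (edgeR, adjusted p = 1). Of 10 tested genes listed for the LIN7 scaffold, again 0 passed, with medians of 0.05 in DN3 and 0.14 in DN2. Mpp1, on this list as a gene of the MPP family, had a log2 fold change of 0.19 ± 0.23 in DN3 (edgeR, adjusted p = 1). Of 15 tested Shisa family genes and p53 targets, 0 passed between the genotypes, with medians of -0.11 in DN3 and -0.06 in DN2. Cdkn1a, which halts the cell cycle, had a log2 fold change of -0.41 ± 0.25 in DN3, and Bax, which promotes apoptosis, one of 0.23 ± 0.40 (edgeR, adjusted p = 1 each). Between the stages 1 of the 15 passed, where 4.08% of all genes did. This was Shisa2 (edgeR, adjusted p = 0.0492), at 1.22 ± 1.08 CPM in DN2 WT and at 0 in all DN3 WT libraries, where 3 counts would be 0.128 to 0.137 CPM. Near its floor in DN3, Shisa2 could pass the count filter only through DN2 libraries, so nothing is read from its call.

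Likeness of pattern was measured by Pearson's r of log2(CPM + 1) over the 11 libraries, among 8510 genes with a mean of at least 10 CPM, as a description over libraries that share stage, genotype and the length trend. Nearest to Gmeb1 were Slc4a7 (r = 0.908), Zfp280b (0.902) and Cd2bp2 (0.890). For Cep97 these were Pik3ip1 (0.959), Atg12 (0.956) and Rc3h2 (0.950), and for Lin7c they were Tgfbr1 (0.980), Pgam2 (0.898) and Hsd11b1 (0.883). Shisa5 was most like Trim12a (0.857), Ctsd (0.853) and 5830411N06Rik (0.850), and Gmeb2 most like Isg20l2 (0.942), Timp2 (0.908) and Jund (0.905). Among the 5, Lin7c and Shisa5 were the closest pair (0.782), and Gmeb1 and Gmeb2 had an r of 0.141.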

How the data were processed

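RNA of sorted DN2 and DN3 thymocytes was measured in 11 libraries, low-input poly-A selected by the study's methods and total RNA by the labels. From trimmed paired reads and the Ensembl 101 transcripts of GRCm38, the authors made 1 table per library with kallisto 0.46. Its estimated counts, as deposited, are expected counts per transcript without normalization, and its TPM, as deposited, are counts per effective length scaled to a fixed sum per library. Lengths and effective lengths, as deposited, are in bases, another unit. Poly-A priming, a length trend in 2 libraries and the sharing out of ambiguous reads can all move transcript values.

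Transcripts were matched to GENCODE M21 (GRCm38) by identifier, which kept at least 98.9% of the estimated counts of each library, and the 3′UTRs, exons and junctions come from it. Gene values are sums of the estimated counts of their transcripts, rounded to whole numbers. Features were kept by filterByExpr (minimum count 10, minimum total 15), which left 13780 genes and 43360 transcripts. They were fitted over the 4 groups with TMM factors in edgeR 4.0.16 (glmQLFit, glmQLFTest, two-sided, Benjamini-Hochberg, calls at an adjusted p under 0.05), and usage with diffSpliceDGE over 9254 genes. SEs are the absolute log2 fold change over the square root of F and are approximate. On simulated data the usage F test made more false calls than its threshold allows. Alternatives used DESeq2 1.42.0 and limma 3.58.1, with pseudocounts of 1 and 0.1 for TPM. Tables used Python 3.11.15. Libraries held 14531762 to 63109504 estimated counts, and floors of 3 counts cover counting error only.

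Differences of Gmeb1, Cep97, Lin7c and Shisa5 in DN3, and between the stages in WT, share the libraries that chose these genes and carry no p-value. The 5 genes, the lists and the marker genes were chosen with earlier results of these data known. Named in full were the 5 genes and, except for Shisa5 and minor forms, their transcripts with a mean of at least 0.5 TPM in a group, further the 3 genes most like each gene, and list genes that passed or reached a mean of 50 CPM. Of the last, those shown were picked after their values were seen.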

Additional observations from a re-analysis of the deposited data

How the results depend on the processing

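Of 1258 values of 122 results under other settings, 1033 kept their direction and their side of the threshold, or for counts and shares stayed close. The lower levels of Gmeb1, Cep97, Lin7c and Shisa5 in DN3 Arpp21-/- thymocytes had log2 fold changes from -2.40 to -1.42, from -1.43 to -0.78, from -0.81 to -0.58 and from -0.89 to -0.55 over all settings. Leaving out 1 library can leave a single library in DN2 Arpp21-/-, which is then assumed to vary like the other groups. Low counts limit the values of Gmeb1-201 and Lin7c-202. The causes of the changes below were not tested.

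With DESeq2 the calls were 38, 15 and 1191 genes and 510, 76 and 1657 transcripts in DN2, in DN3 and between the stages, against 0, 1 and 562 genes and 1, 0 and 290 transcripts with edgeR. In DN3, limma voom called 118 genes, limma-trend with a pseudocount of 0.1 called 2, and a fit of DN3 alone 0. Between the stages limma voom called 2326 genes. The limma-trend fits called 606 and 672 transcripts there with pseudocounts of 0.1 and 1, and with 0.1 they called 3 in DN2 and 1 in DN3. No filter on low counts gave 3 transcripts in DN2. The Simes adjustment called 8 genes by usage in DN2, against 21. Without the 2 distant libraries 5 genes were called in DN3 and 2226 between the stages, 0 transcripts in DN2 and 1309 between the stages, and 38, 8 and 151 genes by usage in DN2, in DN3 and between the stages, against 21, 3 and 29. Leaving out 1 library gave 0 to 6777 genes and 0 to 7756 transcripts in DN2 and 22 to 1111 genes by usage, each highest without DN2 Arpp21-/- replicate 1, which leaves the distant one. The same gave 0 genes and 0 to 5 genes by usage in DN3, and 243 to 387 genes, 64 to 142 transcripts and 10 to 40 genes by usage between the stages.

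The replicate numbers did not pair the samples, since same-numbered samples correlated in their deviations from the group means at 0.127 and 0.111 in DN2, at 0.191, -0.098 and 0.078 in DN3, and at 0.248, 0.074 and 0.149 between the stages. With the replicate number as a block, 0 genes were called in DN3, 0 and 99 transcripts in DN2 and between the stages, and 12 and 13 genes by usage there. Under the block the DN2 log2 fold changes of Gmeb2, Gmeb2-201 and Lin7c-201 turned to 0.12, 0.076 and 0.020, and the calls of Gmeb1-202 (adjusted p = 0.350) and of Gmeb1 usage (adjusted p = 0.124) in DN2 were lost (edgeR).

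Signs turned elsewhere for values near 0 or with large SEs. Taking average transcript length into account gave log2 fold changes in DN2 of 0.041 for Cep97 and -0.036 for Lin7c, and of -0.043 for Gmeb1 between the stages. With limma-trend and pseudocounts of 0.1 and 1, the DN2 values were -0.70 and -0.68 for Lin7c, -0.42 and -0.25 for Cep97-202 and -0.71 and -0.65 for Cep97-205, and those between the stages 0.038 and 0.034 for Gmeb1-202 and 0.11 and 0.046 for Gmeb1-207. Shisa5 in DN2 was at 0.033 with DESeq2 and with its size factors in edgeR, at 0.0035 with a filter of 10 CPM and at 0.040 without the 2 distant libraries, where Shisa5-201 was at 0.078, Lin7c at -0.12 and Cep97-205 at -1.40. Lin7c-201 in DN2 was at 0.016 with DESeq2 and 0.015 with its size factors, at 0.0015 with a filter of 1 CPM and at 0.00026 with none. Gmeb2-201 was at -0.0037 between the stages with DESeq2 and at -0.0034 with its size factors. With 1 library left out, the DN2 ranges were -0.28 to 0.63 for Cep97-202, -1.41 to 1.23 for Cep97-205, -1.96 to 0.68 for Gmeb1-207, -0.37 to 0.24 for Gmeb2, -0.41 to 0.19 for Gmeb2-201, -0.12 to 0.20 for Lin7c, -0.090 to 0.090 for Lin7c-201, -0.085 to 0.063 for Shisa5 and -0.22 to 0.067 for Shisa5-201. In DN3 they were -0.30 to 0.053 for Gmeb2 and -0.28 to 0.035 for Gmeb2-201. Between the stages they were -0.12 to 0.15 for Gmeb1, -0.25 to 0.12 for Gmeb1-202, -0.24 to 0.35 for Gmeb1-207, -0.16 to 0.45 for Gmeb2, -0.18 to 0.42 for Gmeb2-201 and -0.028 to 0.47 for Lin7c-202.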
